A study of Mus musculus with 2 samples.

Results

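The let-7 family of mouse embryonic midbrain was followed here through 10 microRNA loci, Mirlet7a-1, Mirlet7a-2, Mirlet7b, Mirlet7c-1, Mirlet7c-2, Mirlet7d, Mirlet7f-2, Mirlet7g, Mirlet7i and Mir98, out of 1973 loci in the deposited tables. The members were chosen by name, as rows whose Ensembl gene ID carries one of these symbols, and all 10 were found in both tables. The series holds microRNA sequencing of 1 group, midbrain tissue of B6NCrl mice at embryonic day 13.5, pooled from male and female embryos and labelled healthy. There were 2 libraries, each from its own tissue sample and labelled as a separate biological replicate, although both samples carry 1 donor record. Whether the pools came from separate litters is not stated, so differences between the libraries may be biological or technical. No genetic change, treatment or second age is part of the series, so levels and their spread are the results, and no comparison of conditions is possible.

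The let-7 microRNAs were first found in the worm as timing factors, and in mammals they accumulate as progenitors differentiate. Each is cut by Drosha and Dicer from a hairpin, and the strand that loads into Argonaute silences mRNAs such as those of Hmga2, Lin28 and Ras genes through the seed near its 5′ end. The RNA-binding proteins LIN28A and LIN28B block this maturation in early progenitors by binding the loop of the hairpin, where a GGAG element is part of the contact. Some let-7 genes lie in transcripts shared with miR-99/100 and miR-125, the latter being the relative of the worm timing microRNA lin-4.

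The 10 hairpins encode 8 distinct 5p products, the arm that gives the main let-7 microRNA. They are printed 5′ to 3′ from RefSeq (GRCm38.p6) because their near identity sets what can be counted per locus, with the seed, bases 2 to 8, in capitals.
let-7g-5p: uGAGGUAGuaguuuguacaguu
let-7i-5p: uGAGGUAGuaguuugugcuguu
let-7d-5p: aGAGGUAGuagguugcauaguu
miR-98-5p: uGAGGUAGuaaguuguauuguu
let-7b-5p: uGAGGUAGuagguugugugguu
let-7f-5p: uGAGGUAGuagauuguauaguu
let-7c-5p: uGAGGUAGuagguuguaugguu
let-7a-5p: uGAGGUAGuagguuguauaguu
All 8 share 1 seed, GAGGUAG. Counted from 1 at the 5′ end and read against let-7a-5p, let-7c-5p differs by A19G and let-7f-5p by G12A. The let-7b-5p product carries A17G and A19G, let-7d-5p U1A and U16C, let-7g-5p G12U and U18C, and miR-98-5p G11A and A19U. The most distant product, let-7i-5p, has 4 substitutions, G12U, A17G, U18C and A19U.

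The loci fall into 2 classes by their 5p product. At Mirlet7g, Mirlet7i, Mirlet7d, Mir98 and Mirlet7b the 5p sequence occurs in no other annotated microRNA hairpin. At the other 5 loci it occurs in exactly 1 other hairpin: let-7a-5p in Mirlet7a-1 and Mirlet7a-2, let-7c-5p in Mirlet7c-1 and Mirlet7c-2, and let-7f-5p in Mirlet7f-2 and in Mirlet7f-1, which has no row among the loci analysed here. A full-length read of such a product matches more than 1 hairpin, and the tables keep multimapping reads in a summary row of their own, outside every locus count. The 3p arms separate most of these copies but not all, as the following sequences show, with the bases 2 to 8 in capitals.
let-7a-1-3p: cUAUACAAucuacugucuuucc
let-7c-2-3p: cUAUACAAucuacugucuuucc
let-7a-2-3p: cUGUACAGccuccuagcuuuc
let-7c-1-3p: cUGUACAAccuucuagcuuucc
let-7f-2-3p: cUAUACAGucuacugucuuuc
The 3p products of Mirlet7a-1 and Mirlet7c-2 are identical, so at these 2 loci both arms also occur elsewhere. At Mirlet7a-2, Mirlet7c-1 and Mirlet7f-2 the 3p product occurs in 1 hairpin. The tables give 1 count per hairpin, so its arms could not be told apart.

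The loops between the annotated arms of 9 members were 23 to 34 nt long and are printed because GGAG is the element known from LIN28 binding, shown in capitals where it occurs.
Mirlet7g: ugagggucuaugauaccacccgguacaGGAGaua
Mirlet7i: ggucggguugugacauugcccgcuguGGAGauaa
Mirlet7d: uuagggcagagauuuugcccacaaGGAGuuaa
Mirlet7f-2: uuagggucauaccccaucuuGGAGauaa
Mirlet7c-1: uagaguuacacccugGGAGuuaa
Mirlet7a-2: uagaguuacaucaagGGAGauaa
Mirlet7a-1: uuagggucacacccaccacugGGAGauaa
Mirlet7b: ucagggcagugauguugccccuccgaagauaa
Mirlet7c-2: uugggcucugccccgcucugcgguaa
GGAG was searched on the transcript strand only, since the loop is RNA, and 7 of these 9 loops (77.8%) hold it. Among RefSeq hairpins with both arms annotated and a loop of the same range of lengths, 13 of 52 (25.0%) hold it. With the let-7 family left out, 5 of 42 (11.9%) do. The 52 do not include Mirlet7a-2, for which RefSeq lists no 5p entry, or the member whose loop is not printed. The 2 loops without these letters are those of Mirlet7b and Mirlet7c-2. The levels of the loci with and without GGAG overlapped: the 7 with it ranged from 122 to 45544 mean CPM (counts per 1000000, taken over the same-strand counts of all gene rows) and the 2 without it stood at 165 and 1862 mean CPM.

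The same-strand counts summed to 5093743 in replicate 1 and to 2935841 in replicate 2. Reads set aside as multimapping made up 34.4% and 37.7% of the reads accounted for. They outnumbered the counts of all 10 let-7 loci 10.02 and 10.18 times, and their loci of origin are not recorded. Of 12 listed neural microRNA loci, 11 have a row and all 11 exceeded 3 counts in both libraries, at 3.08% and 2.88% of counts. Most of that share came from Mir135b, Mir137 and Mir92b. Mir9-2, Mir124a-1 and Mir124a-3 had at most 12 counts in a library. The endothelial locus Mir126a held 1.63% and 2.12%, 5 mural and mesenchymal loci, of which 4 exceeded 3 counts in both libraries, 0.886% and 1.07%, and the leukocyte, erythroid and muscle lists between 0.00609% and 0.0349%. No listed marker with a row was at 0 in both libraries. All these shares leave out multimapping reads, and how those divide among the lists was not tested. The muscle list held Mir206, Mir208a, Mir208b and Mir499. Outside it, the muscle loci Mir1a-1, Mir133a-1 and Mir133a-2, looked up after the other values were seen, were at 0 counts in both libraries. Any reads of theirs set aside as multimapping are not in these counts, so a 0 does not show that the products were absent. Counts of a library have no molecular identifiers, so the intervals given here cover counting error only.

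The let-7 loci together took 382121 counts in replicate 1 and 254508 in replicate 2. Their share of all counts was 7.50% in replicate 1, with a 95% Clopper-Pearson interval from 7.48 to 7.52. In replicate 2 it was 8.67%, with an interval from 8.64 to 8.70, and the mean was 8.09% ± 0.825 (SD, n = 2). The share was thus higher in replicate 2 by more than counting error. With multimapping reads in the denominator the mean share was 4.44%. Within the family the counts were concentrated in the loci with a 5p product of their own. Those 5 loci held 97.4% of the family's counts in replicate 1 and 97.8% in replicate 2, and the 5 loci with a shared 5p product held 2.55% and 2.17%. Mirlet7g and Mirlet7i alone made up 86.2% and 86.1%. This division describes reads that map to 1 place, and how many reads of let-7a, let-7c and let-7f are among the multimapping reads was not tested.

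**Figure D1:**
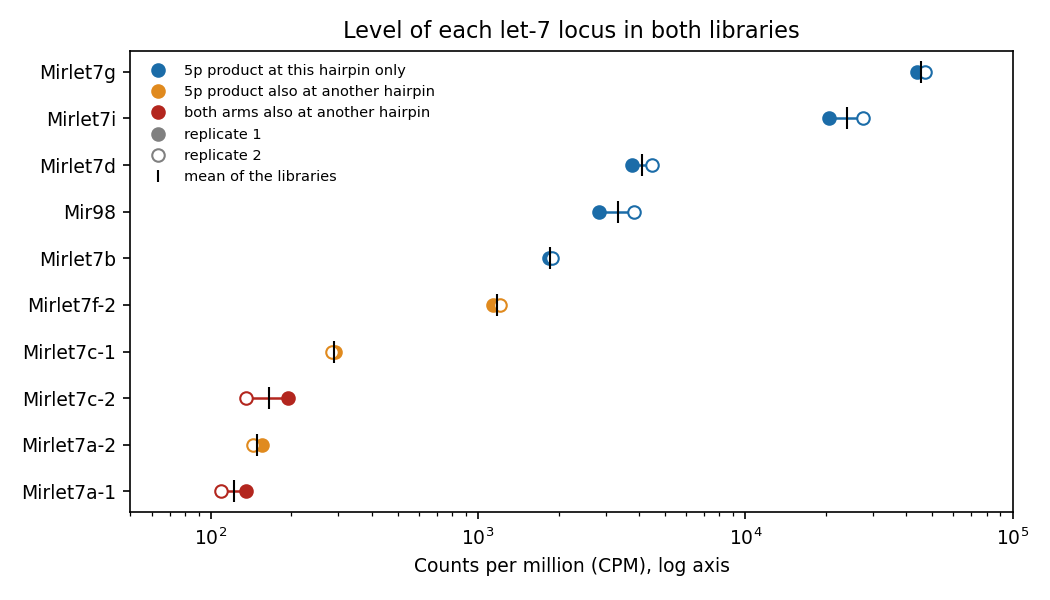
Level of each let-7 locus in CPM on a log axis. Filled points are replicate 1, open points replicate 2 and ticks the mean of both; the 5 loci in blue, whose 5p product occurs at this hairpin only, all lie above the 5 loci in orange and red, whose 5p product also occurs at another hairpin, and the mean levels run from 45544 CPM (Mirlet7g) to 122 CPM (Mirlet7a-1).

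Mirlet7g was the highest member, at 44034 CPM in replicate 1 and 47053 CPM in replicate 2 (mean 45544 ± 2135, SD, n = 2). It stood at place 4 of all loci, between Mir100 and Mir17, a locus linked to proliferation. Its hairpin (ENSMUSG00000065440.1) lies on the plus strand of chromosome 9 from 106178840 to 106178927 on mm10, the build of all positions given here, in an intron of Wdr82, a protein-coding gene for a subunit of histone methyltransferase complexes. Mirlet7g held 58.7% of the family's counts in replicate 1 and 54.3% in replicate 2.

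Mirlet7i followed at 20640 CPM in replicate 1 and 27566 CPM in replicate 2 (24103 ± 4897), at place 8 of all loci. The libraries lay apart by 1.40-fold for this locus after TMM scaling, a correction for composition. The hairpin, at 122985640 to 122985724 on the minus strand of chromosome 10, overlaps an exon in 1 of 2 transcripts of D630033A02Rik, annotated as a transcribed processed pseudogene. Its share of the family was 27.5% and 31.8%, higher in replicate 2, where that of Mirlet7g was lower.

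Mirlet7d stood at 3750 CPM in replicate 1 and 4481 CPM in replicate 2 (4115 ± 517), place 43. Its hairpin, at 48536012 to 48536114 on the minus strand of chromosome 13, falls on an exon of the long noncoding transcript 6720427I07Rik. Mir98, the let-7 relative named outside the let-7 series, stood at 2844 CPM and 3816 CPM (3330 ± 688), place 52. It sits at 151913214 to 151913321 on the plus strand of chromosome X, within an intron of Huwe1, which encodes a large ubiquitin ligase. The ranges of Mirlet7d and Mir98 over the libraries overlapped, since Mir98 in replicate 2 exceeded Mirlet7d in replicate 1.

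Mirlet7b gave nearly the same level in both libraries, 1835 CPM and 1890 CPM (1862 ± 39.1), at place 70. Its position, 85707319 to 85707403 on the plus strand of chromosome 15, is exonic in the noncoding transcript Lncppara. Its 5p product differs from let-7c-5p at 1 base. Within the let-7a to let-7i and miR-98 hairpins, this is the closest neighbour of any of the 5 products with a hairpin of their own. Each of the other 4 differs by at least 2 bases from every other 5p product of the let-7a to let-7i and miR-98 hairpins. The products let-7j, of 24 nt, and let-7k, of 19 nt, were left out of these comparisons because of their lengths. Over the length of let-7i-5p, let-7j differs from it at 1 base. Over its own 19 nt, let-7k differs from the start of let-7b-5p at 1 base.

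Mirlet7f-2 was the highest of the loci with a shared 5p product, at 1140 CPM in replicate 1 and 1211 CPM in replicate 2 (1175 ± 50.4), place 87. It lies 786 nt from Mir98 in Huwe1, also intronic and on the plus strand, at 151912346 to 151912428 of chromosome X. Mirlet7c-1 stood at 291 CPM and 285 CPM (288 ± 4.38), place 159. Its place is intronic in the noncoding host transcript Mir99ahg, at 77599657 to 77599750 on the plus strand of chromosome 16. The SD of these 2 values for Mirlet7c-1 is smaller than their counting error, whose 95% interval in replicate 1 ran from 276 to 306 CPM.

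The 3 lowest members had at most 990 counts in a library. Mirlet7c-2 stood at 194 CPM in replicate 1 and at 136 CPM in replicate 2 (165 ± 41.6), with 990 and 398 counts behind these levels. Like Mirlet7b it is exonic in Lncppara, at 85706603 to 85706697 on the plus strand of chromosome 15. Mirlet7a-2 stood at 155 CPM and 144 CPM (149 ± 7.89), from 789 and 422 counts. This hairpin occupies 41536716 to 41536811 on the plus strand of chromosome 9 and is intronic in the noncoding transcript 3110039I08Rik. Mirlet7a-1, the lowest, stood at 135 CPM and 109 CPM (122 ± 18.7), from 690 and 320 counts. Like Mirlet7d it is exonic in 6720427I07Rik, at 48538179 to 48538272 on the minus strand of chromosome 13. Both loci of let-7a summed to 272 mean CPM and both loci of let-7c to 453 mean CPM, so neither sum reached the level of Mirlet7f-2. These values are levels of a locus and not of the mature let-7a, let-7c or let-7f, since reads counted as multimapping are in none of them.

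The order of the 10 loci was held by both libraries apart from 1 pair. Mirlet7c-2 was above Mirlet7a-2 in replicate 1 and below it in replicate 2, and their ranges overlapped. Mirlet7d was above Mir98 in each library, by 1.32-fold in replicate 1 and 1.17-fold in replicate 2, but their ranges overlapped too. In the other 7 neighbouring pairs the lowest value of the higher locus exceeded the highest value of the next, with mean ratios from 1.22-fold (Mirlet7a-2 over Mirlet7a-1) to 5.86-fold (Mirlet7i over Mirlet7d). The hairpins are 83 to 108 nt long, and per 100 nt of hairpin, a scale added after seeing the data, each locus kept its place in the order.

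The members' places among all loci spread from 4 to 193. Mirlet7d stood between Mir872 (4409 mean CPM) and Mir15a (3957), and Mir98 between Mir22 (3337) and Mir301 (3321). Mirlet7b had Mir101b (1918) above and Mir434 (1840) below, and Mirlet7f-2 had Mir1193 (1188) above and Mir425 (1149) below. The 4 lowest members stood among loci such as Mir1306 (290), Mir217 (270), Mir338 (168), Mir33 (159), Mir410 (144), Mir412 (124) and Mir30b (122). Mir99b (30915) and Mir487b (21992) enclosed Mirlet7i. In all but 3 of these pairs the larger SD of the pair exceeded the gap between the means, so those places are not resolved. The exceptions were Mir100 above Mirlet7g, Mir99b above Mirlet7i and Mir217 below Mirlet7c-1.

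Neighbouring hairpins on 1 strand gave very different counts. Mirlet7d exceeded Mirlet7a-1, which lies 2065 nt away, 27.7-fold in replicate 1 and 41.1-fold in replicate 2. Mirlet7b exceeded Mirlet7c-2, 622 nt away, 9.44-fold and 13.9-fold. Mir98 exceeded Mirlet7f-2 by 2.50-fold and 3.15-fold. In each of these 3 clusters the higher locus was the one whose 5p product occurs at that hairpin only, and its lead was larger in replicate 2. What part the reads outside the locus counts have in these ratios was not tested.

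In the clusters shared with miR-99/100 and miR-125, the let-7 locus had the lowest count. Mir99a, the most abundant locus of the tables, lies 657 nt from Mirlet7c-1 and stood at 205408 CPM and 213570 CPM, which is 706-fold and 750-fold above it. Mir125b-2 lies 46523 nt from Mirlet7c-1 within the same host transcript and stood at 1984 CPM and 1988 CPM, 6.82-fold and 6.98-fold above it. Around Mirlet7a-2, Mir100 lies 5212 nt away and stood 326-fold and 375-fold higher, and Mir125b-1 lies 45115 nt away and stood 14.8-fold and 16.7-fold higher. The Mir125b copies share 1 identical 5p product with each other, as the let-7a and let-7c copies do, whereas the 5p products of Mir99a and Mir100 occur in 1 hairpin each. What part reads outside the locus counts have in the ratios to Mir99a, Mir100 and the Mir125b copies was not tested either. On chromosome 17, Mir99b (29483 and 32347 CPM) and Mir125a (4154 and 3356 CPM) have rows, and Mirlet7e, annotated between them in the later release, was not analysed here.

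**Figure D2:**
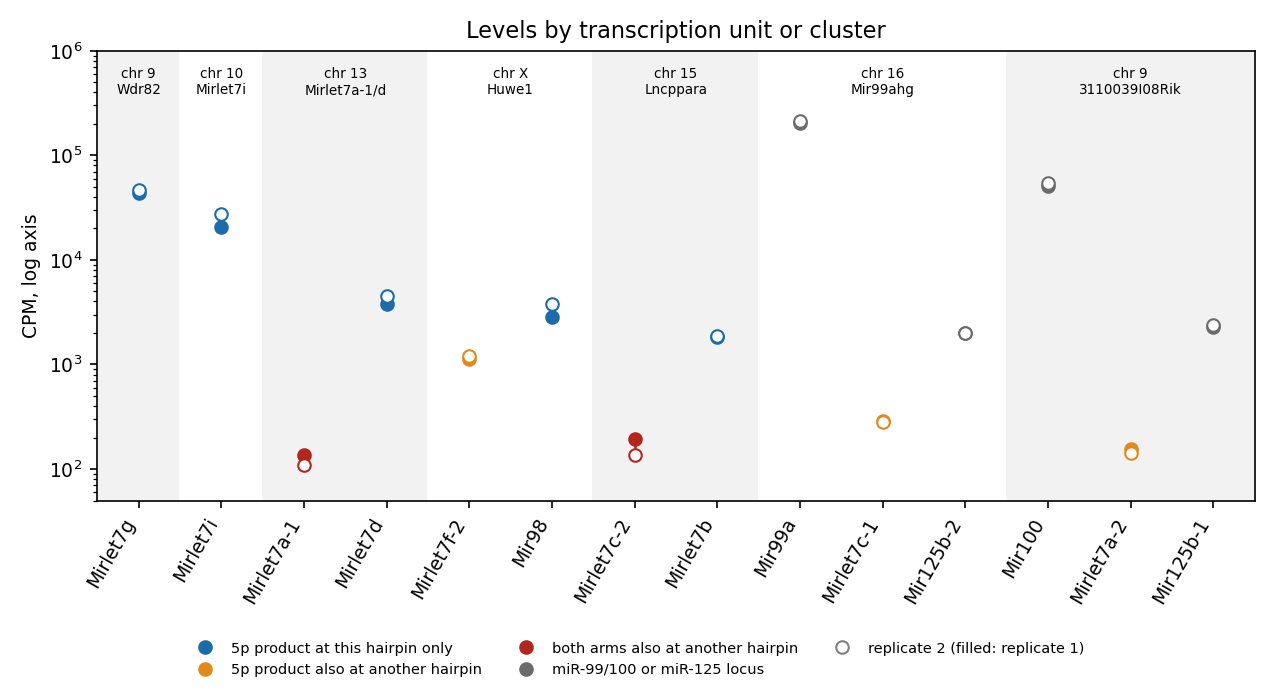
Levels in CPM on a log axis, grouped by chromosome and host transcript or cluster, with filled points for replicate 1 and open points for replicate 2. In each cluster with let-7 loci only, the blue locus lies above its orange or red neighbour, and in the units of Mir99ahg and 3110039I08Rik the let-7 locus lies below the grey miR-99/100 and miR-125 loci, 706-fold below Mir99a in replicate 1. Multimapping reads are in none of these levels.

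The libraries were compared locus by locus with a two-sided exact conditional binomial test on TMM-scaled library sizes, adjusted by Benjamini-Hochberg over the 466 loci with at least 10 counts. It called 38.0% of all loci tested (87 higher in replicate 1 and 90 higher in replicate 2). With a minimum of 50 counts, which every member exceeded, it called 52.3% of 331 loci. At either minimum 8 of the 10 let-7 loci passed. Of these, 6 were higher in replicate 2 (19.3% of all loci) and 2 were higher in replicate 1 (18.7% of all loci). As a log2 ratio of replicate 1 over replicate 2, the median was -0.13 for the members and -0.0041 for all loci tested. The test takes in counting error only, which is small at the members' depth. In bulk tissue, fewer cells of a type and less RNA per cell cannot be told apart. The endothelial share, from Mir126a alone, and the mural share given above were also higher in replicate 2, and the neural share was lower. The neural loci went both ways. Mir137 stood at 9265 CPM in replicate 1 and 6397 CPM in replicate 2, a larger drop than that of the whole neural share. Without Mir137 the other neural loci together were therefore higher in replicate 2. Mir92b stood at 8440 and 9987 CPM. What part these shares have in the differences was not tested.

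All 5 loci with a 5p product of their own were higher in replicate 2, with log2 ratios from -0.49 to -0.11. The ratio was -0.49 for Mir98 (1.41-fold), -0.48 for Mirlet7i (1.40-fold), -0.32 for Mirlet7d (1.25-fold), -0.16 for Mirlet7g (1.12-fold) and -0.11 for Mirlet7b (1.08-fold). Of the 5 loci with a shared 5p product, Mirlet7f-2 was higher in replicate 2 (-0.15). The 2 loci higher in replicate 1 were Mirlet7c-2 (0.45, 1.37-fold, adjusted p = 4.3e-07 by the exact binomial test) and Mirlet7a-1 (0.25, 1.19-fold, adjusted p = 0.031), the ones whose arms both occur in another hairpin. The call of Mirlet7a-1 ended when replicate 1 was thinned to the depth of replicate 2 (log2 ratio 0.23, adjusted p = 0.089 by the same exact test). That of Mirlet7b ended with total counts only (log2 ratio -0.04, adjusted p = 0.17 by the exact test). Mirlet7a-2 (0.041) and Mirlet7c-1 (-0.036) did not pass, and the sign of Mirlet7c-1 turned with total counts only (0.031).

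No let-7 locus differed 1.5-fold between the libraries, against 7.3% of all loci tested that passed the test and differed at least that much. Under edgeR's exact test with the dispersion shared by all loci, a coefficient of variation of 0.158 between the libraries, 0 of the 10 members passed and 0 had an unadjusted p under 0.05, while 4 of 466 loci passed. That dispersion comes from the pair of libraries being compared, so this test has no independent spread behind it, and the ratios of the members are the same in it.

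**Figure D3:**
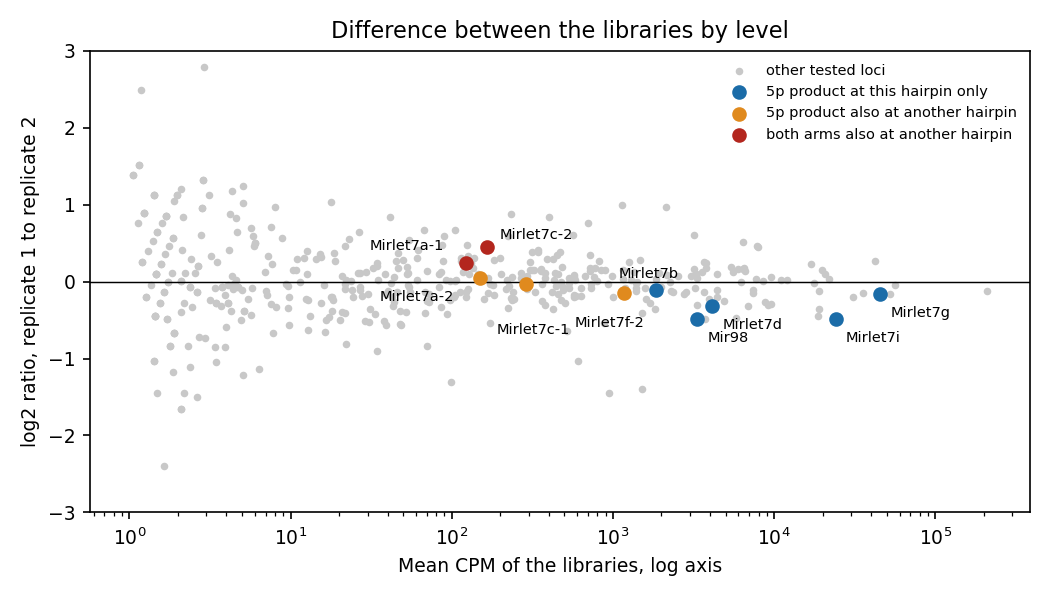
The log2 ratio of replicate 1 to replicate 2 after TMM scaling against mean CPM on a log axis, for all 466 tested loci (grey) and the let-7 loci (coloured by class). The 5 blue loci lie below 0, from -0.49 to -0.11, the 2 red loci lie above it, at 0.25 and 0.45, and all 10 lie within the cloud of the other loci.

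The other rows with a product that carries the let-7 seed are Mir7k and Mir1961, while Mirlet7e and Mirlet7f-1 were not analysed here. Mir7k, which encodes let-7k, had 1 count in replicate 1 and 0 in replicate 2, and Mir1961 had 0 in both, where a count of 0 allows up to 3 counts, or 0.589 CPM in replicate 1 and 1.02 CPM in replicate 2. Mir7j, named after its values were seen, encodes let-7j, whose bases 2 to 8 read GAGGUAU. It had 163 and 129 counts, 32.0 and 43.9 CPM, below every let-7 locus followed here. Over all loci with an annotated hairpin, 923 of 1894 (48.7%) have 20 nt or more in common, without a mismatch, with some other hairpin, and they held 8.66% and 8.48% of all counts. Among the let-7 loci 5 of 10 share such a run. They are the same 5 that share a 5p product, which at 22 nt already makes up such a run.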

How the data were processed

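Raw read counts per gene, 1 table for each of the 2 libraries, were deposited by the authors. The notes beside the files give assembly mm10 and genome annotation M4, and the labels give RNA under 30 nt. No aligner, trimming step or mismatch setting is given in the sources used here. Tables have no header. The second and the third count column add up to the first in 3946 of 3946 gene rows, so the first was read as unstranded. The second was read as same-strand counts and the third as opposite-strand counts, which the sum alone cannot tell apart. At each let-7 locus nearly all counts fell in the second, with 224296 against 0 at Mirlet7g in replicate 1. Summary rows (unmapped, multimapping and unassigned reads) stayed out of library totals, which left 45.7% and 42.8% of the reads. CPM was computed over all gene rows. Names and coordinates come from GENCODE M21 on the same assembly, by ID without version. The version is the same for 7 members and differs for Mirlet7a-1, Mirlet7c-1 and Mirlet7i. Hairpins for shared runs came from GENCODE M21, and hairpins and mature products for the sequences printed from RefSeq GRCm38.p6, which holds all 10 members with the same hairpins. RefSeq lists no 5p entry for Mirlet7a-2, and let-7a-5p was placed there by sequence. The loop of 1 member is not reported here. Annotated hairpins were searched on their own strand, so copies elsewhere in the genome were not looked for.

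Libraries were compared by the exact conditional binomial test on TMM factors (edgeR 4.0.16, scipy 1.17.1, R 4.3.3, Python 3.11.15) with a count minimum of 10, a threshold of 0.05 and a pseudocount of 0.5 CPM in ratios. As alternatives, other count minimums, total counts, size factors of DESeq2 1.42.0, unstranded counts, thinning, a pseudocount of 5 CPM, edgeR's exact test, a 1.5-fold requirement, other denominators, other run lengths and distances, and each replicate left out were tried. Loci named are the members, rows within 10 kb on their strand, miR-99/100 and miR-125 loci of let-7 transcripts, rows with the let-7 seed, and the rows next to each member in the order. Marker lists add Mir126a, Mir137, Mir92b, the other neural loci named and the muscle loci, and Mir7j was named outside these rules. With 2 libraries no locus was named for a like pattern. Members, lists and tests were chosen with earlier results of these data known.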

Additional observations from a re-analysis of the deposited data

Results flagged for a closer look

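Counts on the strand opposite to a let-7 hairpin, which no result above uses, exceeded the 3 counts that mark the floor in both libraries at 1 locus, Mirlet7b, with 7 counts in replicate 1 and 6 in replicate 2. The same-strand counts there were 9346 and 5549. Mir98 had 2 opposite-strand counts in replicate 1 and 0 in replicate 2, and the other 8 members had 0 in both.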

How the results depend on the processing

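The let-7 share of counts, 8.09%, was 4.44% with multimapping reads in the denominator and 10.2% with Mir99a left out of it. With 1 replicate left out it ran from 7.50% to 8.67%. The count of let-7 loci that differed between the libraries, 8 of 10, was 7 or 8 under thinning, unstranded counts, other count minimums, total counts only and DESeq2 size factors. It was 0 when a 1.5-fold difference was required, with 34 of all loci in place of 177, and 0 under edgeR's exact test, with 4 of all loci. That test takes its spread from the pair it compares, so its 0 says nothing about stability. The log2 ratio of Mirlet7c-1, not past the test, turned from -0.036 to 0.031 with total counts only. With total counts only, 61.9% of all calls were higher in replicate 1 in place of 49.2%, and the let-7 calls split into 2 for replicate 1 and 5 for replicate 2. The members sharing an exact run with another hairpin were 9 at 16 nt, 5 at 20 nt and 2 at 24 nt, while the classes used above rest on whole 5p products. Rows counted as cluster neighbours were 7 within 5 kb, 8 within 10 kb and 13 within 60 kb. No paired analysis was possible because the series holds 1 group. Depth limits the 3 lowest members most, where 320 counts were the fewest in a library.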
